A study of Mus musculus with 217 samples.

Results

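Bone-like cells with little aggrecan mRNA were compared with the chondrocytes around them in single-cell profiles of the mouse growth plate. Aggrecan, encoded by Acan, is the large proteoglycan that lets cartilage resist compression, and growth plate chondrocytes make it. The profiles were selected on measured values: Acan below 5 on the deposited log2 scale against Acan at or above 5. Within the small Acan-low group, profiles with Col1a1 at or above 5 were described apart from the others, because Col1a1 encodes a chain of the type I collagen of bone. This gave 11 Acan-low profiles, 5.88% of all (95% exact Clopper-Pearson interval 2.97 to 10.3%), while the other 94.1% were Acan-high. Of the 11, 8 were Col1a1-high (4.28%, interval 1.86 to 8.26%) and 3 were Col1a1-low (1.60%, interval 0.332 to 4.62%). The intervals cover counting error only.

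Both groups come from tibial growth plates, microdissected on postnatal day 7, and share the strain (C57/BL), the wild-type genotype and the preparation. The title of the study gives the reconstruction of growth plate development from single cells as its aim. No animal, plate, sort or gate is named for any cell, so all cells are 1 sample and no test between the groups was possible. Every SD or SE below is a spread over cells. Of 217 deposited columns, 52 fell into 23 sets of near-identical columns (r of at least 0.964 over 9739 genes, against at most 0.686 for other pairs) and were averaged, and Cell_204 was left out by the rule that chose the profiles. None of the 11 Acan-low profiles was such an average, whereas 23 of the Acan-high profiles were. Between 2187 and 4118 genes were detected in an Acan-low profile (median 2757) and between 1326 and 4994 in an Acan-high profile (median 3463.5), where detection means a linear value (after undoing the log) of 1 or more. Sequencing depth is unknown, and any 0 below may mark a gene whose estimate failed.

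Chondrocytes are specified by the transcription factor Sox9 and secrete a matrix of collagens II, IX and XI, aggrecan and link protein. Osteoblasts, which form bone on the cartilage that hypertrophic chondrocytes leave behind, secrete type I collagen and mineral-binding proteins such as bone sialoprotein, the product of Ibsp. Late hypertrophic chondrocytes also make bone sialoprotein, so that Ibsp alone does not separate the cell types, and blood vessels, marrow and perichondrium adjoin the growth plate.

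The stretches of 250 bases before the RefSeq start sites of 4 genes are shown because these genes define the contrast: Ibsp, Ifitm5 and Col1a2 lead the bone side and Acan divides the groups. They are from build GRCm38.p6, and 4 of 6 genes looked up were matched, without Col1a1 and Sox9. Ibsp lies at chr5:104299287-104311472 (window chr5:104299037-104299286, plus strand) and Ifitm5 at chr7:140948958-140950243 (window chr7:140950244-140950493, minus strand). Col1a2 lies at chr6:4505618-4541543 (window chr6:4505368-4505617, plus strand) and Acan at chr7:79053226-79115099 (window chr7:79052976-79053225, plus strand). Capitals mark matches on either strand to TGTGGT (the core that RUNX factors bind), to the CCAAT box, to the TATAAA of a TATA box, to the GGGCGG of a GC box and to TAATTA (a homeobox core).
Ibsp: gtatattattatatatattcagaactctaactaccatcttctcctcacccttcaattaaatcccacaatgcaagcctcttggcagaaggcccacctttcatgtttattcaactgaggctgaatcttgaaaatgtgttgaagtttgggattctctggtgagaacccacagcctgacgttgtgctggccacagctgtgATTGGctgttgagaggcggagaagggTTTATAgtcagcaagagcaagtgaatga
Ifitm5: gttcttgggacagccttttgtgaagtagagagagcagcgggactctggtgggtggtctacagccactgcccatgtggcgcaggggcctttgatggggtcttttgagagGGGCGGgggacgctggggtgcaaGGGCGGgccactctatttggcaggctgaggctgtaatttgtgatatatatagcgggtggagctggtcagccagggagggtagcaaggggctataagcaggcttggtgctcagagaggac
Col1a2: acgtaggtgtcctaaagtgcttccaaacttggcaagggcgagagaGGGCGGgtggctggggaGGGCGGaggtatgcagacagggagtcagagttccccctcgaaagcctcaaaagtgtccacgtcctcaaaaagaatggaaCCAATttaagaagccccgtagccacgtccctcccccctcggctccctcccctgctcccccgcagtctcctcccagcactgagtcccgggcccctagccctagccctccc
Acan: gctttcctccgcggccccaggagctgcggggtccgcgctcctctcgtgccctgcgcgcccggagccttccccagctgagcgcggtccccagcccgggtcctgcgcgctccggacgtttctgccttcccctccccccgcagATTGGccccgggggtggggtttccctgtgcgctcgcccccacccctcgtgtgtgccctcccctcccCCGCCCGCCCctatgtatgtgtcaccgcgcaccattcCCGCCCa
Of 32851 windows of this length in the table, 14.05% hold TGTGGT, 33.8% CCAAT, 12.4% TATAAA, 32.7% GGGCGG and 4.84% TAATTA. In the Ibsp window the capitals are a CCAAT that begins 54 bases before the start and a TATAAA at 28 bases, both on the minus strand. The Ifitm5 window holds 2 matches to GGGCGG on the gene's own strand. The Col1a2 window holds 2 matches to GGGCGG and 1 to CCAAT, all in the direction of the gene. The Acan window has CCAAT at 110 bases and GGGCGG at 44, 40 and 7 bases, all on the minus strand, and those at 44 and 40 bases overlap. TGTGGT and TAATTA are not in these 4 windows. A match describes letters and not a binding site.

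Acan, by which the groups were divided, left a wide gap. Its highest value in the Acan-low group was 2.91 in Cell_114, the next was 0.01, and the 2 lowest values in the Acan-high group were 6.67 and 6.79. Col1a1 was 7.47 in Cell_061 and between 11.50 and 13.28 in the other 7 Col1a1-high profiles, and it was 0.00 in each of the 3 Col1a1-low profiles. Among Acan-high profiles the values nearest the threshold were 4.84 below it and 5.09 above it, and 6 (3.41%, interval 1.26 to 7.27%) were at or above 5. Sox9, on chromosome 11 (112782210 to 112787757), was 2.34 to 11.69 (median 8.98) in Acan-high profiles. In the Acan-low group it was highest at 6.12 in Cell_009 and 5.56 in Cell_114, and it was 0.00 in 4 profiles, so that the ranges overlapped.

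**Figure D1:**
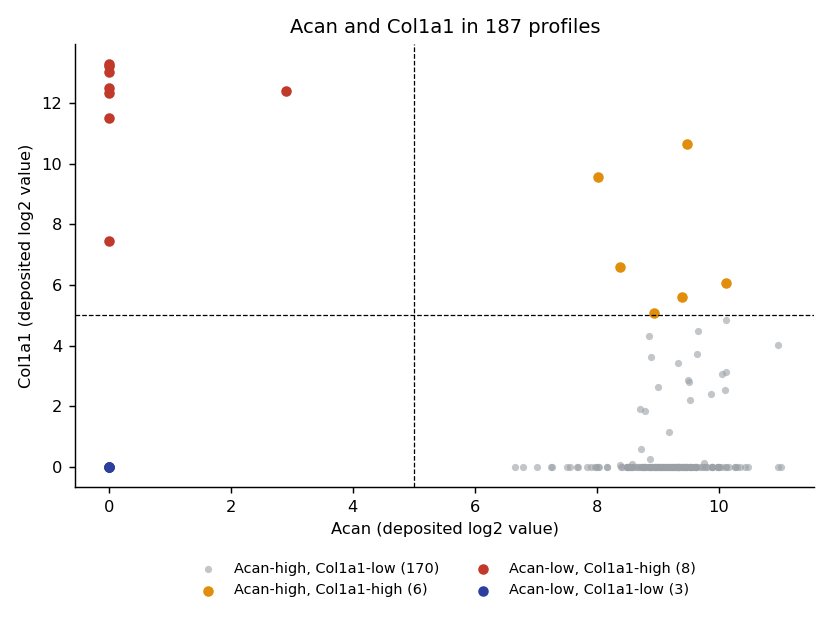
Deposited log2 value of Acan (horizontal) and Col1a1 (vertical) in every profile, coloured by group, with dashed lines at the thresholds of 5. The 3 Acan-low, Col1a1-low profiles lie on one another at 0, and no profile lies between 2.91 and 6.67 in Acan.

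The bone markers given for these cells are Col1a1, Col1a2, Ibsp and Ifitm5, and they were checked profile by profile. Ibsp was 14.73 in Cell_033, 12.96 in Cell_039, 12.88 in Cell_091, 14.38 in Cell_114, 12.74 in Cell_127, 14.92 in Cell_196 and 14.70 in Cell_208, but 5.36 in Cell_061. In the Col1a1-low profiles it was 7.10 in Cell_009 and 0.00 in Cell_069 and Cell_110. Acan-high profiles ran from 0.00 to 15.05 (median 0.00, detected in 21.02%), so their highest value lay above every Acan-low profile although most were at 0. The mean of the Col1a1-high profiles was higher than that of the Acan-high profiles by 11.59 (SE 1.14).

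Ifitm5 encodes a small membrane protein of osteoblasts, and a recurrent mutation of it causes a form of brittle bone disease. It was 8.002 in Cell_114 and between 9.49 and 10.77 in 6 further Col1a1-high profiles, and 0.00 in Cell_061 and in all 3 Col1a1-low profiles. It was detected in 15.3% of Acan-high profiles, with a highest value of 9.59, and 5 of the 8 Col1a1-high profiles lay above it. Col1a2, the partner chain of Col1a1, was 9.12 in Cell_061 and 12.84 to 14.67 in the other 7, above the highest Acan-high value of 12.29 in 7 of 8. Col1a2 was also 9.63 in Cell_009, where Col1a1 was listed at 0. Col1a1 had chosen these profiles and says nothing about the label. Of the other 3 markers, 7 Col1a1-high profiles carried all, Cell_061 and Cell_009 carried Ibsp and Col1a2 without Ifitm5, and Cell_069 and Cell_110 carried none. The 7 are called bone-like below.

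The genes with the largest differences between the 8 Col1a1-high and the Acan-high profiles were of several kinds. Car3, a carbonic anhydrase, was 0.00 in Cell_061 and 8.95 to 12.44 in the other 7, and it was detected in 5.68% of Acan-high profiles (highest 9.91), a mean difference of 9.32 (SE 1.44). Serpinf1, which encodes pigment epithelium-derived factor and is mutated in another form of brittle bone disease, ran from 6.16 to 12.68 (median 10.88) against 0.00 to 10.77 (median 0.00). Both genes had a median of 0.00 in Acan-high profiles and were high in at least 7 of the 8.

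Slc36a2, an amino acid transporter, was 0.00 in Cell_061 and 5.74 to 9.08 in the other 7, and was detected in 3.98% of Acan-high profiles (highest 6.33). Lgals1, which encodes galectin-1, ran from 6.04 to 10.34, and the cytoskeletal gene Tmsb4x was 0.00 in Cell_114 and 7.96 to 11.61 elsewhere. Their highest Acan-high values were 7.82 and 10.50. Unlike Ifitm5, both were also present in Col1a1-low profiles: Lgals1 was 9.66 in Cell_009 and 6.37 in Cell_110, and Tmsb4x was 8.95, 11.10 and 11.73 in Cell_009, Cell_069 and Cell_110. Cthrc1, a secreted collagen triple helix repeat protein, separated the groups less, with 6.53 to 10.72 against 0.00 to 10.17 (median 3.62).

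**Figure D2:**
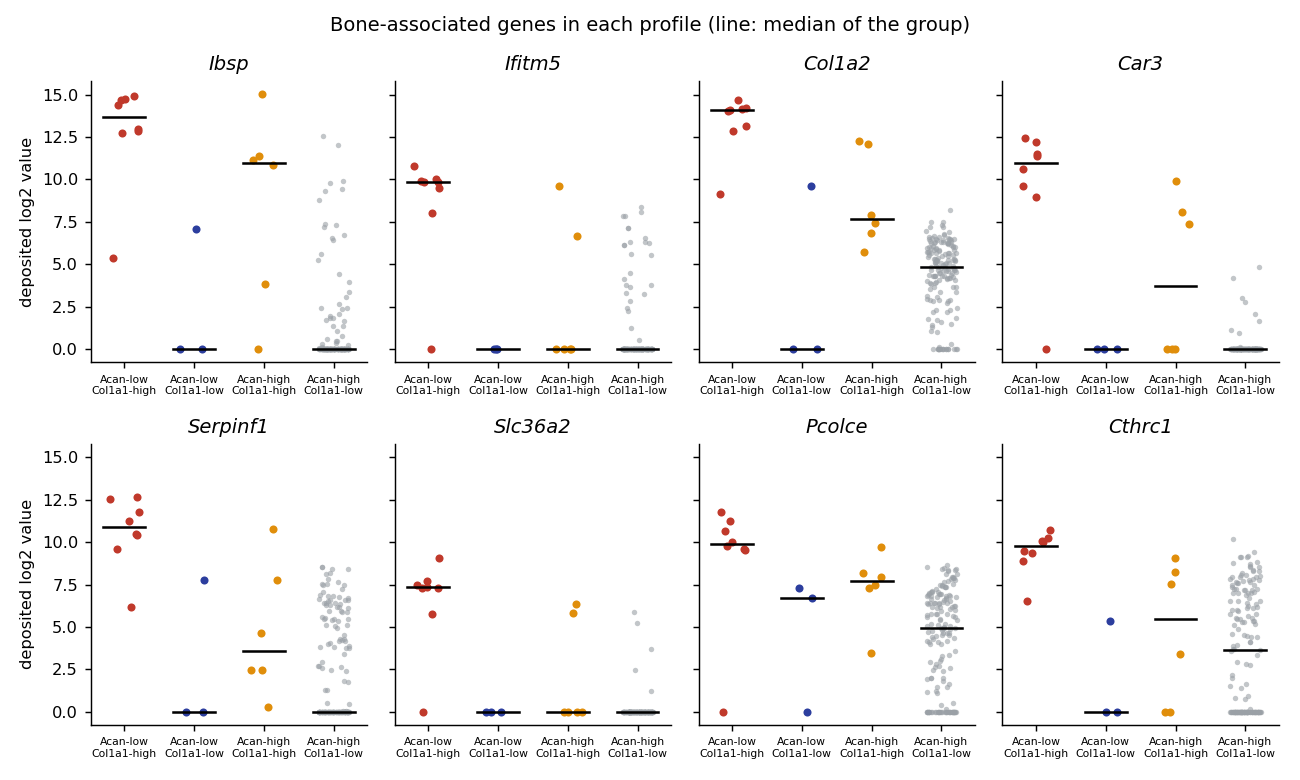
Deposited log2 values of 8 bone-associated genes in each profile, with 1 panel per gene, 1 point per profile (shifted sideways at random for visibility) and a line at the median of each group. In the panels of Ifitm5, Car3, Slc36a2 and Pcolce, 7 of the 8 Acan-low, Col1a1-high profiles are high and 1, Cell_061, is at 0.

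All 9737 genes other than Acan and Col1a1 give the background to these differences. A mean difference of at least 2 on the log2 scale was taken as past the fold, and it was a description, because the same values had chosen the groups. Against the Acan-high profiles, 346 genes were past the fold towards higher values in the Col1a1-high profiles (3.55%) and 553 towards lower values (5.68%). For all 11 Acan-low profiles these numbers were 292 (2.999%) and 598 (6.14%), and for the 3 Col1a1-low profiles 748 (7.68%) and 1173 (12.05%). The mean of 3 profiles varies more than that of 8, and leaving out any of the 3 moved their numbers to between 844 and 1120 higher and 1201 and 1422 lower. The 3 profiles also had fewer genes detected, with a median of 2295 against 3463.5 in Acan-high profiles. Against Acan-high profiles with 2187 to 3018 genes detected, the range of the 3, 966 genes were higher (9.92%) and 855 lower (8.78%). The lower genes then no longer outnumbered the higher ones, and the part of detection was not tested. Every gene in the deposited table is above 0 in at least 10 columns. A gene found only in the 8 Col1a1-high profiles could therefore not be listed. That no gene was above 0 in a Col1a1-high profile and in no Acan-high profile thus says little about genes particular to them.

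Osteoblast genes were next taken in the order of their roles. Of the osteoblast differentiation list, 26 of 32 genes were measured, of which 14 were past the fold towards higher and 2 towards lower values in the Col1a1-high profiles, beside the 3.55% and 5.68% of all genes. Their median difference was 2.37, against -0.15 over all genes. The other bone lists did not lean the same way: of 17 measured bone matrix genes without Col1a1, 4 were past the fold higher and 4 lower (median 0.49), and of 13 mineralization genes 6 were higher and 4 lower (median -0.06). In the Col1a1-low profiles the osteoblast differentiation list had 5 higher and 4 lower, beside 7.68% and 12.05% of all genes, and a median of -0.29, against -0.30 over all genes. Bone matrix there had 1 higher and 5 lower (median -0.80), and mineralization 1 higher and 5 lower (median -0.47). The number of osteoblast differentiation genes detected was 4 in Cell_061 and 14 to 22 in the other 7 Col1a1-high profiles. It was 11 in Cell_009, 3 in Cell_069 and 2 in Cell_110, and between 2 and 18 (median 7) in Acan-high profiles.

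Among the transcription factors of the lineage, Sp7, the gene of osterix, was detected in 5 of the 8 at 2.60 to 5.50 and in 45.5% of Acan-high profiles, so it did not mark the group. Runx2, the first of these factors in bone development, was detected in 2 of 11 Acan-low and 10.2% of Acan-high profiles. Dlx3, a homeobox factor of bone, was detected in 5 of the 8 (3.01 to 7.35) and in 23.9% of Acan-high profiles.

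Genes of later osteoblast stages divided the Col1a1-high profiles. Dmp1, a mineral-binding matrix protein of osteocytes, was 9.94 in Cell_039, 9.60 in Cell_127, 9.30 in Cell_208, 8.85 in Cell_196 and 2.79 in Cell_114, and 0.00 in Cell_033, Cell_061 and Cell_091. Phex, an endopeptidase that controls phosphate, was detected in the same 5 profiles at 6.71 to 9.64 and was 0.00 in the same 3. Bglap, an osteocalcin gene, followed the same division, from 2.53 in Cell_114 to 9.39 in Cell_039. These 3 genes were therefore present together in 5 profiles and absent together in 3.

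The osteocalcin copies Bglap and Bglap2 are near-identical, and how reads were divided between them is uncertain. Bglap2 reached 12.96 in Cell_039 and 11.18 in Cell_127, but it was also 6.92 in Cell_033 and 7.42 in Cell_061 and 0.00 in Cell_196. Spp1, the gene of osteopontin, ran from 4.61 to 8.998 in the 7 profiles other than Cell_061 and reached 10.59 among Acan-high profiles. Cdh2, the N-cadherin of the osteoblast surface, was detected in 7 of 8 (2.36 to 6.20) and in 1.70% of Acan-high profiles, with 8.40 in Cell_009.

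**Figure D3:**
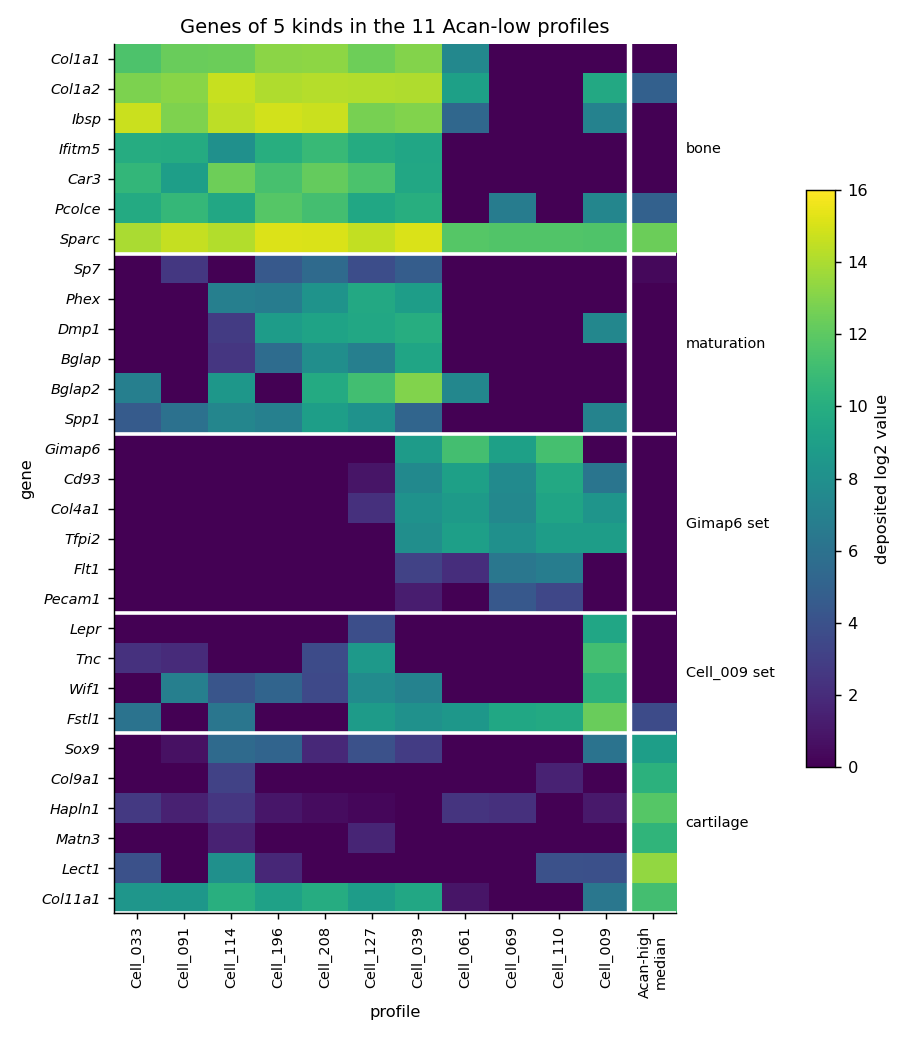
Deposited log2 value (colour) of 29 genes in rows for the 11 Acan-low profiles, with the median of the Acan-high profiles in the last column. Bone genes fill the 7 columns on the left, Gimap6, Cd93 and Col4a1 fill those of Cell_039, Cell_061, Cell_069 and Cell_110, and of the 6 cartilage genes shown Col11a1 is the one that stays high in the 7 bone-like profiles.

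Genes that process fibrillar collagens, type I among them, were not uniformly higher. Of 35 listed genes of fibrillar collagen processing, 29 were measured; 5 were past the fold higher and 4 lower in the Col1a1-high profiles, beside 3.55% and 5.68% of all genes. Their median difference, -0.15, was that over all genes. In the Col1a1-low profiles 0 were higher and 12 lower (median -1.73), beside 7.68% and 12.05% of all genes. Pcolce, which enhances removal of the collagen C-propeptide, was 0.00 in Cell_061 and 9.53 to 11.79 in the other 7, against a median of 4.99 and a highest value of 9.72 in Acan-high profiles. Bmp1, the protease that Pcolce enhances, was detected in all 8 at 1.59 to 5.001 and in 16.5% of Acan-high profiles (mean difference 3.24, SE 0.35). The means of both genes of C-propeptide removal were thus higher in this group.

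The N-propeptidases Adamts2 and Adamts14 were each detected in 5 of the 8, at 2.83 to 5.17 for Adamts2 and 1.29 to 6.51 for Adamts14, and in 4.55% and 14.8% of Acan-high profiles. Leprel1, now called P3h2, encodes a prolyl 3-hydroxylase and was 0.00 in all 11 Acan-low profiles, against a median of 8.07 and detection in 92.6% of Acan-high profiles. Col5a2 and Col5a1, the type V chains that start type I fibrils, were 3.61 to 10.30 and 0.00 to 6.43 in the 8, against medians of 2.01 and 0.00. Sparc, a collagen-binding glycoprotein, was high in all cells, at 13.99 to 15.14 in the 7 profiles with Ifitm5, 11.80 in Cell_061 and 10.41 to 14.11 in Acan-high profiles.

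Cartilage matrix genes were low in all 11 profiles. Of 24 measured members of 29 listed, without Acan, 21 were past the fold towards lower values and 0 towards higher values in each of the contrasts. The shares of all genes past the fold lower were 6.14% for the Acan-low, 5.68% for the Col1a1-high and 12.05% for the Col1a1-low profiles. The median difference was -8.60 for the Col1a1-high and -8.92 for the Col1a1-low profiles. Acan-high profiles had between 10 and 24 of the 24 detected (median 21), the Col1a1-high profiles between 1 and 13 (median 3.5), and the Col1a1-low profiles 5 in Cell_009, 2 in Cell_069 and 5 in Cell_110. Cell_114, the profile with 2.91 for Acan, held 13, among them Lect1 at 8.02 and Comp at 4.53. Over the whole table, 4 genes (0.0411%) were lower in every Acan-low than in any Acan-high profile, and 0 genes were higher in every Acan-low profile.

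These 4 genes all belong to cartilage matrix. Hapln1, link protein, which ties aggrecan to hyaluronan, was 0.00 to 2.65 in Acan-low and 8.31 to 13.31 in Acan-high profiles. Col9a1 and Col9a3, chains of the collagen on the surface of cartilage fibrils, were at most 3.15 and 2.13 against at least 8.48 and 6.14. The gene listed as 3110079O15Rik, now Snorc, encodes a chondrocyte proteoglycan and was 6.53 in Cell_009, 3.75 in Cell_127 and 0.00 in the other 9, against 8.95 to 12.79.

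Lect1, now Cnmd, the gene of the vessel-inhibiting protein chondromodulin, was 8.02 in Cell_114, 3.98 in Cell_110, 3.95 in Cell_033, 3.90 in Cell_009, 1.80 in Cell_196 and 0.00 in the other 6. Its Acan-high values ran from 5.46 to 14.24 (median 13.41), a mean difference of -11.31 (SE 0.81) for the 11 profiles. The matrilin genes Matn1 and Matn3 and the adhesive glycoprotein Comp reached at most 2.10, 1.63 and 4.53 in Acan-low profiles, against Acan-high medians of 9.14, 10.44 and 9.56. Mia, a small protein secreted by chondrocytes, was 0.00 in all 11 and detected in 99.4% of Acan-high profiles.

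Not every cartilage gene was lower to the same extent. Col11a1, a chain of cartilage fibrils that also takes part in fibrils of bone cells, was 8.40 to 10.09 in the 7 profiles with Ifitm5, 6.36 in Cell_009, 0.88 in Cell_061 and 0.00 in Cell_069 and Cell_110. Acan-high profiles ran from 8.27 to 12.58 (median 11.23), so the bone-like values lay at the lower end of the chondrocyte range. Bgn, biglycan, was 7.88 to 11.29 in the 8 against a median of 9.22, and Dcn, decorin, was 0.00 in Cell_061 and 6.16 to 8.61 in the other 7 against a highest Acan-high value of 5.90. Lum, lumican, ranged widely, at 0.00 to 11.60 against a median of 9.73, so that the small proteoglycans did not move together.

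**Figure D4:**
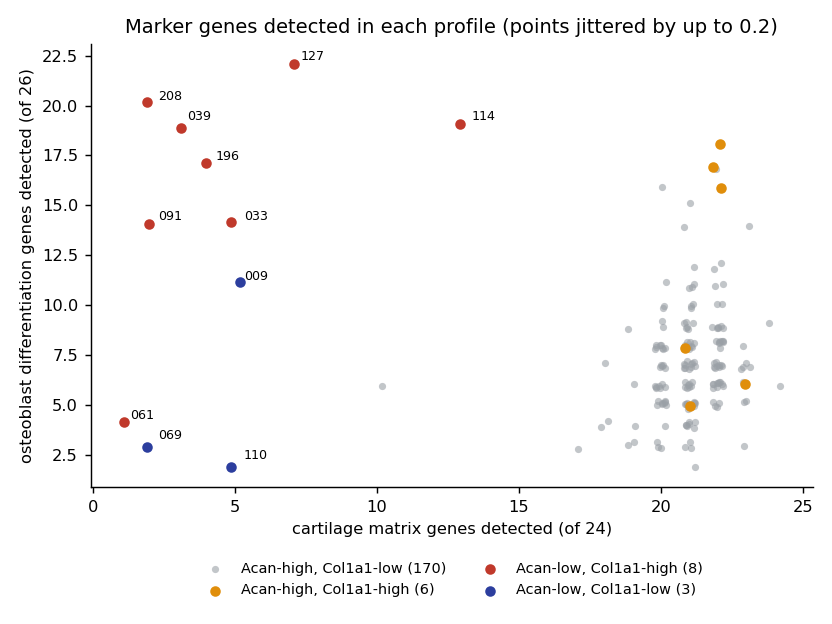
Number of cartilage matrix genes (horizontal, of 24) and osteoblast differentiation genes (vertical, of 26) detected in every profile, coloured by group, with the 11 Acan-low profiles marked by cell number. The 7 bone-like profiles have 14 to 22 osteoblast genes, Cell_061, Cell_069 and Cell_110 have few of either kind, and the Acan-high profiles have a median of 21 cartilage genes.

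Of the genes that serve the cartilage matrix, several were lower. Of 22 measured genes of proteoglycan chain synthesis and sulfation, 0 were past the fold higher and 6 lower in the Col1a1-high profiles (median -1.21), where 5.68% of all genes were lower, and 1 and 7 in the Col1a1-low profiles (median -1.39), where 12.05% were. Chst11, a chondroitin 4-sulfotransferase, was 0.00 to 6.52 in the 8 and 0.00 in the 3, against a median of 7.69. Slc26a2, the sulfate transporter of chondrocytes, was detected in 2 of 11 against 82.95% of Acan-high profiles, and Sc4mol, now Msmo1, a sterol-synthesis enzyme, was at most 1.02 against a median of 9.93. Foxa2, Foxa3 and Runx3, transcription factors active in maturing chondrocytes, were 0.00 in all 11 and were detected in 30.7%, 69.3% and 58.5% of Acan-high profiles.

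Signalling genes were taken by pathway. Of 17 measured WNT pathway genes, 2 were past the fold higher and 1 lower in the Col1a1-high profiles (median -0.18), and of 27 BMP and TGF-beta genes 4 were higher and 4 lower (median -0.04). Beside them, 3.55% of all genes were higher and 5.68% lower, with a median of -0.15. Wif1, a secreted WNT inhibitor, was detected in 6 of 8 at 3.53 to 7.72, with 10.28 in Cell_009, against 17.05% of Acan-high profiles. Sfrp4, another WNT antagonist, was 6.48 to 7.80 in Cell_033, Cell_091, Cell_127 and Cell_196 and 0.00 in the other 7 Acan-low profiles. Bmp6, a growth factor of maturing chondrocytes, was 0.00 in all 11 and was detected in 72.7% of Acan-high profiles, whereas Bmp4 was detected in 3 of the 8 and in 2.27% of Acan-high profiles. Tnfsf11, which encodes RANKL, the inducer of osteoclasts, was 7.51 in Cell_091 and 7.75 in Cell_009, above the highest Acan-high value of 5.88.

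Of 23 measured genes of matrix proteases and their inhibitors, 11 were past the fold higher and 0 lower in the Col1a1-high profiles, with a median difference of 1.44, beside 3.55% and 5.68% of all genes. In the Col1a1-low profiles 8 were higher and 3 lower (median 0.51), beside 7.68% and 12.05% of all genes. Mmp16, a membrane-bound matrix metalloproteinase, was 0.00 in Cell_061 and 5.83 to 8.40 in the other 7, against a median of 0.00. Adamts5, an aggrecanase, was 4.85 to 9.09 in 5 of the 8 and was detected in 17.05% of Acan-high profiles. Mmp13, the collagenase of late hypertrophic cartilage and bone, was 8.22 in Cell_127 and 8.99 in Cell_009 and 0.00 in the other 9. Plau, the urokinase gene, was 9.37 and 9.64 in Cell_069 and Cell_110 and above 5 in Cell_039 and Cell_061, but 0.00 in the other 7.

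Interferon-induced transmembrane genes differed from Ifitm5 in where they appeared. Ifitm3 was detected in 6 of the 8 Col1a1-high profiles (5.10 to 9.07) and was 10.47, 8.40 and 10.48 in Cell_009, Cell_069 and Cell_110, against 6.82% of Acan-high profiles. Ifitm2 was detected in all 11 at 5.52 to 9.59, against 0.00 to 9.57 in Acan-high profiles, so that the ranges overlapped. Of the 4 measured members of this family, Ifitm5 and Ifitm10 were at 0 in all 3 Col1a1-low profiles, and Ifitm10 was also at 0 in 7 of the 8 Col1a1-high profiles.

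Genes known from other cell types were then followed through the 11 profiles, and several of them were chosen after their values were seen. Gimap6, a GTPase gene of vascular and lymphoid cells, was 11.29 in Cell_110, 11.20 in Cell_061, 9.07 in Cell_069, 8.78 in Cell_039 and 0.00 in the other 7 Acan-low profiles. Cd93, a receptor of endothelial and myeloid cells, and Col4a1, a chain of basement membrane collagen, were high in the same 4, at 7.61 to 9.67 and 7.48 to 9.32. All 3 genes were detected together in 4 of 11 Acan-low and 3 Acan-high profiles. Cell_009 had Cd93 at 6.24 and Col4a1 at 8.35 without Gimap6.

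Only 4 of 20 genes of the endothelial list were measured, namely Pecam1, Flt1, Erg and Ets1, and the median difference over them was 0.25 for the Col1a1-high and 1.62 for the Col1a1-low profiles. Pecam1, which marks endothelium, was 4.43 in Cell_069, 3.38 in Cell_110, 1.29 in Cell_039 and 0.00 in the other 8. Flt1, a receptor for vascular endothelial growth factor, was 6.36 and 6.80 in Cell_069 and Cell_110 and 3.15 and 2.10 in Cell_039 and Cell_061. The number of the 4 genes detected ran from 0 to 2 in the 8, 0 to 3 in the 3 and 0 to 4 in Acan-high profiles (median 0). Their summed level, log2 of the linear sum plus 1, was 0.00 to 5.85 in the 8, 0.00 to 6.92 in the 3 and 0.00 to 7.62 in Acan-high profiles, and its part in the differences was not tested.

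Cell_039 carried both programmes: its bone genes were as high as in the other bone-like profiles (Ibsp 12.96, Ifitm5 9.49), it had Gimap6, Cd93 and Col4a1, and with 4118 it had the most genes detected of the 11. No doublet caller was run, and 2 cells in 1 profile cannot be told apart here from 1 cell with both sets of genes. Without Cell_039 and Cell_061, 363 genes were past the fold higher and 575 lower in the Col1a1-high profiles, against 346 and 553 with them. Of 6 measured haematopoietic and macrophage genes, Fcer1g and Cd68 were 9.78 and 8.44 in Cell_110, and Fcer1g was also 7.66 in Cell_039 and 6.58 in Cell_196. Of 3 measured osteoclast-list genes, Ctsk, a collagen-degrading cathepsin, was detected in 7 of 8 and 68.2% of Acan-high profiles. Mmp9 was detected in 37.5% of the 8, with 6.97 in Cell_127, and in 2.84% of Acan-high profiles. The summed level of the haematopoietic list was 0.00 to 7.66 in the 8, 0.00 to 10.26 in the 3 and 0.00 to 8.85 in Acan-high profiles, and no gene of the red blood cell list was measured.

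The 3 Col1a1-low profiles were not alike. Cell_069 and Cell_110 had Gimap6, Cd93 and Col4a1, and Ibsp, Col1a2, Spp1 and Dmp1 were 0.00 in both. Cell_009 had Col1a2, Ibsp, Dmp1 (7.41) and Spp1 (7.18) together with Lepr at 9.46, the leptin receptor that marks marrow stromal cells, and the matrix glycoprotein Tnc at 11.19. It also had the highest Wif1 (10.28), Fstl1 (12.37) and Serpine2 (12.45) of the 11, with Cdh11, a mesenchymal cadherin, at 8.75. Of 10 measured marrow stromal genes, 3 were past the fold higher in the Col1a1-low profiles, beside 7.68% of all genes (median difference 0.71), and without Cell_009 the mean difference of Lepr went from 2.98 to -0.18. The means of this group therefore rest on unlike cells. Of the 10 marrow stromal genes, 5 were detected in Cell_009 and 5 in the bone-like Cell_127. Acan-high profiles had 0 to 5 of them detected (median 2).

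Some genes were high in all 3 Col1a1-low profiles, and also in Cell_061 or Cell_039 of the Col1a1-high group. Gng11, a G protein subunit, was 10.03, 9.27 and 11.13 in Cell_009, Cell_069 and Cell_110, against 9.27 in Cell_061, 8.64 in Cell_039 and a highest Acan-high value of 9.91. Tfpi2, a secreted protease inhibitor, was 8.88, 8.03 and 8.91, and 9.02 in Cell_061 and 7.92 in Cell_039, and these 5 profiles lay above the highest Acan-high value of 7.60. Igfbp4, which binds insulin-like growth factors, was 10.77, 7.94 and 7.45, and 7.52 in Cell_039. Kitl, stem cell factor, was 8.56, 8.92 and 7.20, and 8.67 in Cell_061 and 6.70 in Cell_039. These genes were detected in 23.3% (Gng11), 3.41% (Tfpi2), 5.68% (Igfbp4) and 6.25% (Kitl) of Acan-high profiles.

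Cell cycle genes were carried by a few profiles. Of 11 measured G2/M genes, 10 were detected in Cell_127, 7 in Cell_039, 6 in Cell_069 and 3 in Cell_033, against 0 to 10 (median 0) in Acan-high profiles. Mki67, the proliferation marker, was 3.66 in Cell_127, 4.35 in Cell_039, 6.33 in Cell_069 and 0.00 in the other 8, and it was detected in 8.52% of Acan-high profiles. The bone-like profiles Cell_127 and Cell_039 thus held Mki67 together with Dmp1, Phex and Bglap. They also had the most genes detected in the group, 3846 and 4118. Of 13 measured S phase genes, 1 was past the fold higher in the Col1a1-high profiles and 6 in the Col1a1-low profiles, beside 3.55% and 7.68% of all genes, with medians of 0.31 and 1.82.

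Of 23 measured stress-responsive genes (immediate-early and heat shock), 6 were past the fold higher and 0 lower in the Col1a1-high profiles, beside 3.55% and 5.68% of all genes. Their median difference was 0.90, against a median of -0.15 over all genes. Of the 23, 20 had a difference above 0, beside 3861 of all 9737 genes. In the Col1a1-low profiles 1 was higher and 2 lower (median 0.10), beside 7.68% and 12.05% of all genes. Atf3 was 0.00 in Cell_061 and 4.31 to 9.54 in the other 7 against a median of 5.11. Egr1 was 5.72 to 12.29 in the 7 profiles with Ifitm5 and 0.00 in Cell_061, Cell_009, Cell_069 and Cell_110, against a median of 9.16. Nupr1, a stress-induced gene, was divided in the same way, at 9.27 to 13.87 in the 7 and 0.00 in the same 4, with detection in 97.2% of Acan-high profiles.

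**Figure D5:**
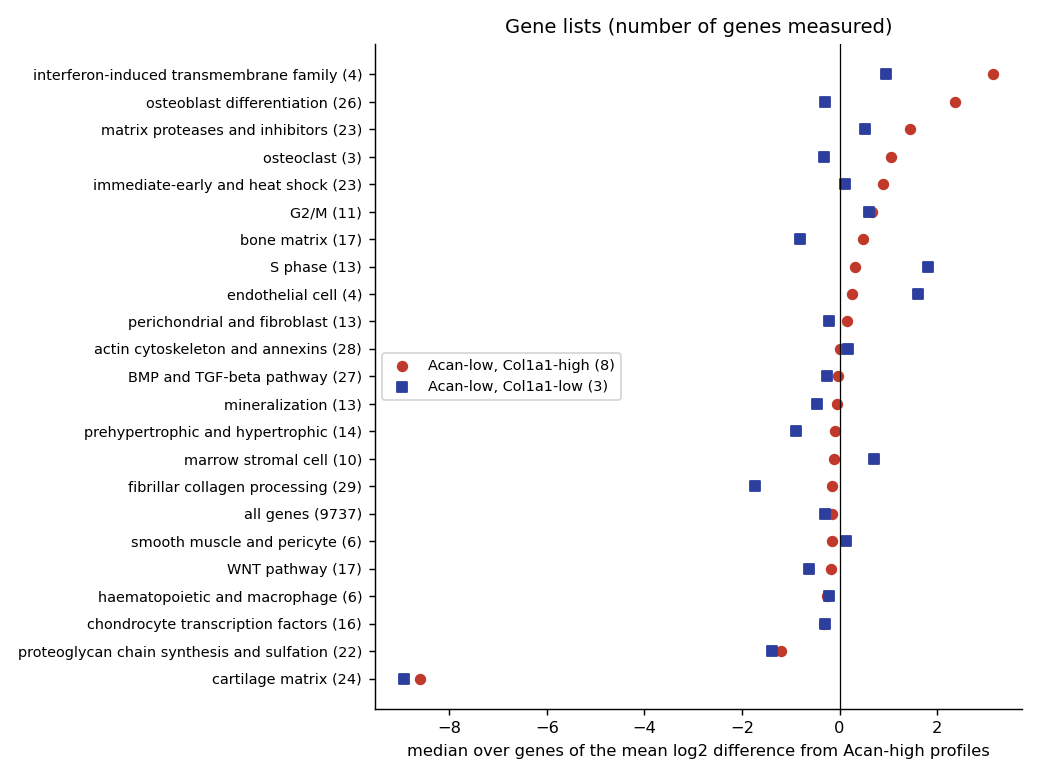
Median over the measured genes of each list of the mean log2 difference from the Acan-high profiles, for the 8 Acan-low, Col1a1-high (circles) and the 3 Acan-low, Col1a1-low profiles (squares), with the number of genes measured in parentheses. Cartilage matrix lies at -8.60 and -8.92, osteoblast differentiation at 2.37 and -0.29, and all genes at -0.15 and -0.30.

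Bone genes were not limited to the Acan-low profiles. The 6 Acan-high profiles with Col1a1 at or above 5 were Cell_006, Cell_014, Cell_034, Cell_035, Cell_148 and Cell_193. Cell_014 had Col1a1 at 10.64, Col1a2 at 12.10, Ibsp at 11.37 and Ifitm5 at 9.59, beside Acan at 9.48, and Cell_148 had 9.55, 12.29, 15.05 and 6.64, beside Acan at 8.01. Ifitm5 was 0.00 in the other 4. These 6 profiles had 11 to 16 of the 17 measured bone matrix genes detected (median 14), within the 5 to 16 (median 11) of all Acan-high profiles, while the 8 Acan-low, Col1a1-high profiles had 5 to 15 (median 9.5). They had 21 to 23 of the 24 cartilage matrix genes detected, and 3215 to 4994 genes in all (median 4226.5). Here too, mixed cells cannot be told apart from cells with both sets of genes.

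Likeness over all 9739 genes placed each of the 11 profiles nearer to the mean of the other Col1a1-high profiles than to the mean of the Acan-high profiles, as Pearson's r across genes, which are not independent. Acan and Col1a1, which chose the groups, are among these genes. Without them the number was again 11 and the largest change in these r was 0.0015. Leaving out so few of so many genes could hardly change an r, and the genes that differed along with Acan stayed in. The likeness is therefore not independent of the choice of profiles. Cell_039 had r = 0.734 with the Col1a1-high mean and 0.638 with the Acan-high mean, and Cell_110, a Col1a1-low profile, 0.599 and 0.501. Of the Acan-high profiles, 1 was nearer to the Col1a1-high mean. It was not Cell_148, which had the highest r with that mean, 0.708, but 0.786 with the Acan-high mean. Among themselves the 7 profiles with Ifitm5 had r of 0.503 to 0.607, and Cell_061, Cell_069 and Cell_110 had r of 0.520 to 0.551, against 0.398 to 0.527 between the sets. The r of Cell_061 with Cell_069 and Cell_110 lay within the range of the bone-like profiles among themselves, and Cell_009 had r of 0.414 to 0.476 with the other 10.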

How the data were processed

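Single-cell RNA-seq values were taken as deposited, 1 column per cell. Per the labels' protocols, polyA RNA was amplified with SMARTer chemistry and made into Nextera XT libraries. The submitters' processing notes name TopHat and mm10. Which quantifier, annotation, filters and abundance measure produced them is not given in the sources used here. As deposited, they read as log2(x + 1), scaled per cell by the authors. Base 2 was inferred, because the CV of linear totals per cell was 7.33% with it, 14.8% with base e and 190.5% with base 10. Of the values, 62.3% are 0.

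Profiles and groups were formed as described above. Differences are between group means of log2 values. Named genes were the 12 of largest difference in each direction per contrast (8 between the Acan-low groups), if detected in at least 50% of the higher group, plus 6 fixed genes, up to 6 per list and defining markers of other cell types. Other list members, and Gimap6 and its companions, were chosen after their values were seen. Some genes that the rule names are not reported here. The members and lists were chosen with earlier results of these data known. The steps were tested on simulated data. Computation used NetworkX 3.6.1, pandas 2.3.3, NumPy 2.4.6 and SciPy 1.17.1 in Python 3.11.15, with plots from matplotlib 3.10.9.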

Additional observations from a re-analysis of the deposited data

Results flagged for a closer look

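Cell_061 stood apart from the other 7 Acan-low, Col1a1-high profiles. Of 14 measures examined in these 8 profiles, 11 had Cell_061 as the lowest value, with a gap to the next that exceeded Dixon's 95% critical value for 8 values. Chance flags about 1 in 20 groups if values are normally distributed, which genes at 0 are not. The genes are not independent of each other or of the rule that chose the profiles, and Col1a1 is part of that rule. The 11 flags are therefore a description of 1 profile and not separate support. Its values were 7.47 for Col1a1 (next 11.50), 9.12 for Col1a2 (next 12.84), 5.36 for Ibsp (next 12.74) and 11.80 for Sparc (next 13.99). Serpinf1 was 6.16 (next 9.60), Cthrc1 6.53 (next 8.90) and Col11a1 0.88 (next 8.40). Ifitm5, Car3, Pcolce and Dcn were 0.00 in Cell_061, where the next values were 8.002, 8.95, 9.53 and 6.16.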

How the results depend on the processing

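Recomputed numbers of genes past the fold moved by over 1.5 times in 25 cases, and list medians moved by more than the SD over their genes in 23 cases, against 1419 that did not. Differences of single genes moved by more than the SD over profiles in 100 cases, against 1805 that did not, and 4 numbers of profiles or of genes detected moved. Shares below are percentages of all 9737 genes, higher then lower against Acan-high profiles. With a fold of 1 they were 10.9% and 16.8% for the Acan-low, 11.8% and 15.9% for the Col1a1-high and 16.6% and 24.8% for the Col1a1-low profiles. With a pseudocount of 0.1 they were 7.51% and 13.8%, 8.46% and 12.4%, and 12.8% and 22.5% in the same order. With log2 ratios of linear means they were 6.79% and 15.2%, 6.06% and 16.8%, and 9.97% and 32.2%. With medians of log2 values they were 5.69% and 9.70% for the Acan-low profiles, and 6.67% were higher in the Col1a1-high profiles. When only the 5384 genes detected in at least 20% of profiles were counted, 1.84% were higher in the Acan-low and 4.72% in the Col1a1-low profiles. These are still shares of all 9737 genes and not of the 5384, so they show no fall among the genes tested. With Acan below 7, which adds 2 profiles to the Col1a1-low group, 1.91% were higher in the Acan-low profiles, and 2.49% were higher and 7.91% lower in the Col1a1-low profiles.

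Leaving out 1 profile at a time gave 2.88% to 3.56% higher and 5.86% to 6.90% lower for the Acan-low, 3.45% to 4.32% and 5.46% to 6.45% for the Col1a1-high, and 8.67% to 11.5% and 12.3% to 14.6% for the Col1a1-low profiles. Against Acan-high profiles with Col1a1 below 5, an alternative chosen after the data were seen, 3.68% and 5.66% were past the fold for the Col1a1-high profiles. The number of Acan-high, Col1a1-high profiles, 6, was 15 with thresholds of 3 and 2 with thresholds of 7.

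Directions turned in 4 cases. The median of the interferon-induced transmembrane family in Col1a1-high profiles, 3.15, was -0.044 among genes detected in at least 20% of profiles. Without Cell_039 and Cell_061, also chosen after the data were seen, the differences of Cd93 and Gimap6 in the Col1a1-high profiles were -0.023 and -0.34. These were the only Col1a1-high profiles with Cd93 or Gimap6 detected, and they were left out for that reason. These turns were thus fixed by the choice and say nothing about the processing. Leaving out 1 profile at a time, the Lepr difference in Col1a1-low profiles ran from -0.18 without Cell_009 to 4.55 without Cell_069. The Cd93, Gimap6 and Lepr differences turned when profiles in which these genes were high were left out. Except there and where fewer genes were tested, the cause of the changes was not tested. No paired analysis was possible because the cells are 1 sample. No difference between groups comes from a test. Dixon's critical value, used for Cell_061, concerns the spread over cells only. A gene at 0 may lie under the depth of its profile, which is unknown.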

Other observations

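Cell_204, the column left out of all groups, carried both sets of genes. It had Acan at 8.25, Sox9 at 9.77, Lect1 at 13.11 and Hapln1 at 11.63 beside Ibsp at 14.23, Col1a2 at 11.59, Col1a1 at 8.27 and Ifitm5 at 4.57. Gimap6 was 5.25 and Cd93 was 0.00 in it. With 5073 it had more genes detected than any of the profiles compared, whose highest number was 4994.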
